A study of Rattus norvegicus with 9 samples.

Results

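The genes of the clock output and nuclear receptor loop were followed through 9 RNA-Seq libraries of rat dorsal root ganglia (DRGs), the ganglia that hold the cell bodies of sensory neurons. The 10 members are Dbp, Tef, Hlf, Nfil3, Nr1d1, Nr1d2, Rora, Rorb, Bhlhe40 and Bhlhe41, found by gene symbol among 20413 genes in the table. Dbp was selected on measured values, namely its lower level in CPIP+EA than in CPIP, and the others are its partners in the same loop. For that reason the CPIP+EA against CPIP values of all members are a description with no test, and Dbp carries no p-value in any comparison.

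All animals were male Sprague Dawley rats aged 8 to 10 weeks, each library coming from 1 rat. Con rats wore a cut O-ring at the ankle that left blood flow open, under the same anesthesia as the model. CPIP rats, the chronic post-ischemic pain model of complex regional pain syndrome, had 1 hind paw made ischemic for 3 h with a tight O-ring and then reperfused. CPIP+EA rats were the same model given electroacupuncture (EA), current passed through acupuncture needles in both hind limbs, once a day for 10 days. The right L4-6 DRGs of 3 rats per group were collected at day 10. The rats lived under 12 h of light and 12 h of dark, and the clock hour of collection is not given in the sources used here.

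In the mammalian clock, ARNTL (also BMAL1) and CLOCK bind E-boxes and switch on Per, Cry and many output genes, and PER and CRY proteins then repress them. Around this core, the nuclear receptors NR1D1 and NR1D2 (REV-ERB alpha and beta) repress Arntl through ROR response elements (ROREs), which the RORs activate. Among the outputs, DBP, TEF and HLF are PAR bZIP activators of D-boxes, and NFIL3 (E4BP4) is a repressor of the same sites. BHLHE40 and BHLHE41 (DEC1 and DEC2) bind E-boxes and oppose ARNTL and CLOCK. Dbp and Nr1d1 are known for some of the strongest daily rhythms of any tissue clock, so that their level in a tissue depends on the hour.

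The letters of these elements were looked up in the 250 bases upstream of RefSeq gene starts (GRCr8 build), on both strands, as CACGTG for the E-box, TTANGNAA for the D-box and TAGGTCA for the RORE. Of the 10 members, 9 had a promoter in the table, in 10 windows, and Hlf had none. An E-box was found in 4 members, Tef, Nr1d1, Bhlhe40 and Bhlhe41, while 0 members held the D-box letters and 0 the RORE letters. The other Nr1d1 window (chr10:84231813-84232062, minus strand) held no match. Over all 33469 promoters of this length, 5.59% held the E-box, 10.4% the D-box and 2.26% the RORE. The promoters of Nr1d1 and Tef are shown as the members with an E-box whose CPIP+EA libraries all lay below the Con libraries, and those of Ciart, Per2 and Arntl as the genes outside the members that hold several E-boxes, a D-box, and a D-box with a RORE. Capitals mark the matched letters, and no match overlapped another.
Nr1d1, chr10:84229455-84229704, minus strand: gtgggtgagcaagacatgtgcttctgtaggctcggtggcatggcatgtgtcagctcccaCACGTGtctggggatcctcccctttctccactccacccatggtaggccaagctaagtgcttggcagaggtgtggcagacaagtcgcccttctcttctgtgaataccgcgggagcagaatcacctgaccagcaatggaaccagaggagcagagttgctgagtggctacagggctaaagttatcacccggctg
Tef, chr7:115206577-115206826, plus strand: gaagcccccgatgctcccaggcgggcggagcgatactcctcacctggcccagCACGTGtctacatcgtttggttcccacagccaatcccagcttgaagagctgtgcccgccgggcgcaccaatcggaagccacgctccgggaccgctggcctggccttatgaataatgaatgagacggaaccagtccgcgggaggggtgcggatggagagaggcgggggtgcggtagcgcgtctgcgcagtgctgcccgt
Ciart, chr2:186112247-186112496, minus strand: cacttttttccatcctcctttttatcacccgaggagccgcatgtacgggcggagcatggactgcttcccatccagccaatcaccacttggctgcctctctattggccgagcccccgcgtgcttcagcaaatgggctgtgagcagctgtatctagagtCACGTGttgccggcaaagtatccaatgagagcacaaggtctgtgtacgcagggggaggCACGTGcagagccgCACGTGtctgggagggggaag
Per2, chr9:99496994-99497243, minus strand: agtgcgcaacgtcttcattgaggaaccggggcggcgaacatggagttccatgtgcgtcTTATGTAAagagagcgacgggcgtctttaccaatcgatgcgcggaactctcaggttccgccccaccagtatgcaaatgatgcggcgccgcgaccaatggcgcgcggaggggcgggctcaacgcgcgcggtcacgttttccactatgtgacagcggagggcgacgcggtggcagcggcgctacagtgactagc
Arntl, chr1:176766078-176766327, plus strand: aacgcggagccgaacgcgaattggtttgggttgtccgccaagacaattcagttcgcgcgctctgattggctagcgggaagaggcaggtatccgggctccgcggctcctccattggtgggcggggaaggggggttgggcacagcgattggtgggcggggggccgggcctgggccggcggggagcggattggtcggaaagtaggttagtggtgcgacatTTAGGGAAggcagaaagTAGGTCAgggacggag
The E-box began 191 bases upstream of this Nr1d1 start and 198 bases upstream of the Tef start, and those of Bhlhe40 and Bhlhe41 began 220 and 48 bases upstream. Ciart held 3 E-boxes, at 93, 35 and 21 bases. In Arntl, the D-box letters began 33 bases and the RORE letters 16 bases upstream. The Dbp window held none of the 3 elements, which says only that these letters are not in this window.

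Values are FPKM, read counts scaled by transcript length and library size, which set genes of different length on 1 scale. Summed FPKM ranged from 445647 to 482940 per library, and between 18279 and 18456 genes were above 0. Neuronal markers were present in every library, with the summed FPKM of Tubb3, Prph, Snap25, Calca, Scn10a and Nefh between 4533.4 and 5607.7. Blood-cell markers varied more, and CPIP+EA replicate 3 held the highest summed level both of the 6 neutrophil and marrow myeloid markers (666.32, against 34.64 to 266.53 in the other libraries) and of the 4 erythroid markers (6214.2, against 706.48 to 4148.8). The 4 macrophage markers were also highest there, at 64.62 against 38.0 to 50.66 in the others. The 4 satellite glia markers (Fabp7, Kcnj10, Cadm2, Apoe) moved with the groups, their sum lying between 3489.2 and 3609.7 in Con, below every CPIP (3642.6 to 3998.7) and CPIP+EA library (3884.1 to 4092.5). The summed Schwann cell markers ran from 4591.3 to 11743.0 with overlapping groups. The 3 fibroblast markers (Col1a1, Dcn, Lum) summed to 508.23 and 423.11 in CPIP+EA replicates 1 and 2, below replicate 3 (872.11) and every Con and CPIP library (645.11 to 1031.1), and the 5 skeletal muscle markers to 97.66 in CPIP replicate 2 against 6.61 to 30.2 in the others. The part of cell makeup in the values below was not tested, and in whole ganglia fewer cells of a type and less RNA per cell cannot be told apart.

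By mean FPKM over the 9 libraries the members ran from Dbp (36.9 ± 9.60, SD, n = 9) through Tef (30.3), Nr1d1 (21.5), Nr1d2 (18.8), Bhlhe41 (14.9), Bhlhe40 (6.84), Nfil3 (2.26), Hlf (1.46) and Rora (1.27) to Rorb (0.080). Neighbors in this order overlapped in their libraries except at 3 steps, Bhlhe41 above Bhlhe40, Bhlhe40 above Nfil3 and Rora above Rorb. The CPIP+EA means alone gave another order at 3 places, with Tef (27.9) above Dbp (26.6), Nr1d2 (17.25) above Nr1d1 (17.04) and Rora (1.34) above Hlf (1.05). Rorb lay under the filter of a mean of 0.1 FPKM and was not tested, which left 9 members. Its libraries stood at 0.02, 0.08 and 0.08 FPKM in Con, 0.12, 0.01 and 0.08 in CPIP, while the CPIP+EA libraries gave 0.04, 0.05 and 0.24.

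**Figure D1:**
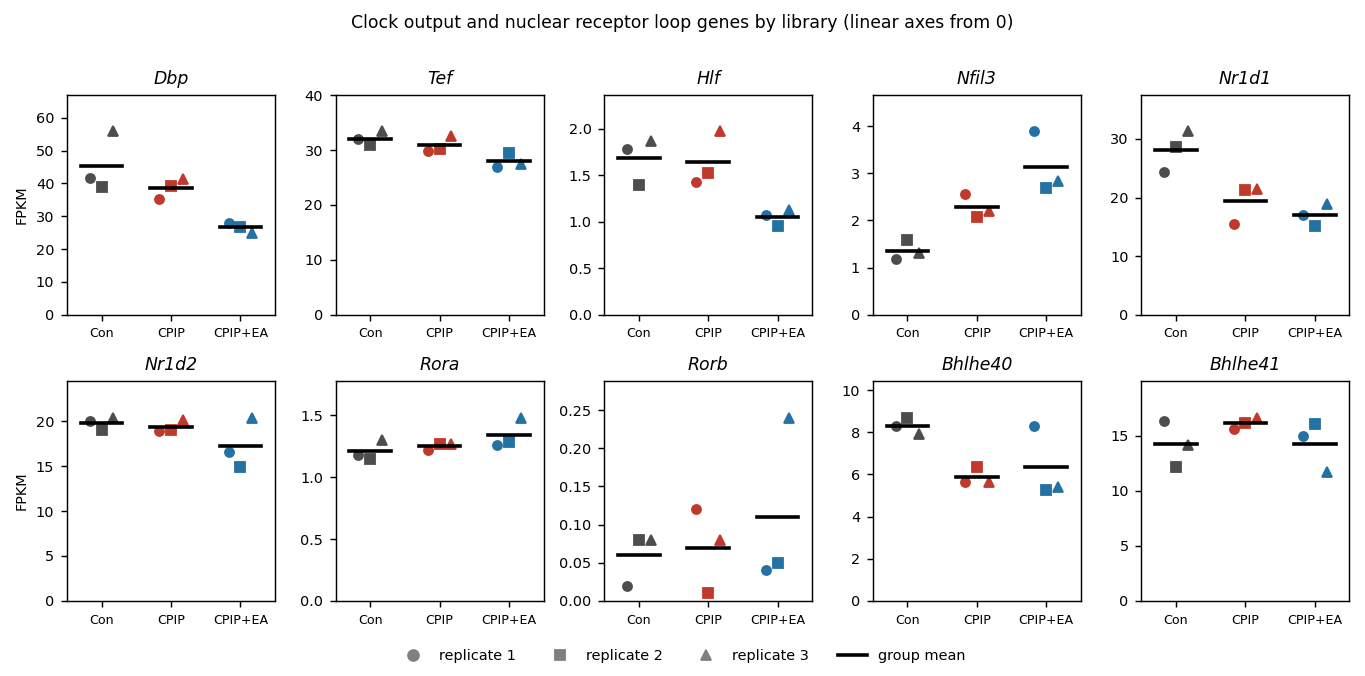
FPKM of each member (linear vertical axes from 0, a panel per gene) in the 3 libraries of Con, CPIP and CPIP+EA, with symbols for the replicate number and a bar for the group mean. Dbp, Tef and Hlf lie lower in the CPIP+EA libraries than in all others, while Nfil3 is higher in CPIP than in Con and higher again in CPIP+EA.

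Each of the PAR bZIP activators was lower in all 3 CPIP+EA libraries than in any other library. Dbp stood at 41.59, 38.91 and 55.82 FPKM in the Con libraries, at 35.25, 39.32 and 41.44 in CPIP, while the CPIP+EA libraries gave 28.06, 26.83 and 24.91. Con and CPIP overlapped, and every CPIP+EA library lay below both. The CPIP+EA mean was 0.688 of the CPIP mean, the value on which Dbp was selected, with a log2 difference of -0.53. Against Con the log2 difference was -0.75 in CPIP+EA and -0.22 in CPIP. The last value was -0.059 without Con replicate 3, the library with the highest Dbp level. Since the hour of collection is not known for any group, an hour that differed between groups cannot be told apart from the treatment in the values of Dbp and of every other clock gene below.

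Tef, the activator with the steadiest level, stood at 32.00, 30.89 and 33.40 FPKM in Con, at 29.75, 30.16 and 32.64 in CPIP, while the CPIP+EA libraries gave 26.87, 29.47 and 27.47. Its CPIP+EA libraries lay below all others, by a small margin. CPIP+EA against Con gave a log2 difference of -0.20 (SE 0.062, limma adjusted p = 0.225, 0.175 to 0.435 over the alternatives). CPIP against Con gave -0.06 (adjusted p = 0.916), which was -0.028 without Con replicate 3, -0.032 without CPIP replicate 1 and -0.097 without CPIP replicate 3, and CPIP+EA against CPIP -0.14.

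Hlf, the least expressed of the activators, stood at 1.78, 1.39 and 1.87 FPKM in Con, at 1.43, 1.52 and 1.97 in CPIP, while the CPIP+EA libraries gave 1.07, 0.95 and 1.13. Here too the CPIP+EA libraries lay below all others. The log2 difference of CPIP+EA from Con was -0.49 (SE 0.14, limma adjusted p = 0.177, 0.138 to 0.396 over the alternatives). It was -0.46 from CPIP, and CPIP differed from Con by -0.03 (adjusted p = 0.986), a value of either sign, -0.14 to 0.042, with 1 library left out.

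Nfil3, the D-box repressor, went the other way. It stood at 1.19, 1.59 and 1.30 FPKM in Con, at 2.57, 2.08 and 2.21 in CPIP, while the CPIP+EA libraries gave 3.89, 2.68 and 2.84. The 3 groups did not overlap in any pair, Con being lowest and CPIP+EA highest. CPIP+EA exceeded Con by 0.96 on the log2 scale (SE 0.15, 95% interval 0.62 to 1.30, limma adjusted p = 0.0172), which missed the adjusted p of 0.01 required of a differentially expressed gene (DEG). Over the alternatives this adjusted p ran from 0.0144 to 0.0753. CPIP exceeded Con by 0.59 (SE 0.15, adjusted p = 0.192), and CPIP+EA exceeded CPIP by 0.37, or by 0.23 without CPIP+EA replicate 1.

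Of the nuclear receptors, Nr1d1 stood at 24.44, 28.63 and 31.28 FPKM in Con, at 15.44, 21.26 and 21.42 in CPIP, while the CPIP+EA libraries gave 17.02, 15.20 and 18.89. Both model groups lay below Con in every library, and they overlapped each other. The log2 difference from Con was -0.53 in CPIP (SE 0.14, limma adjusted p = 0.208) and -0.70 in CPIP+EA (SE 0.14, adjusted p = 0.0548, 0.0267 to 0.182 over the alternatives), and CPIP+EA differed from CPIP by -0.17. Leaving out CPIP replicate 1 moved the last value to -0.32, and it became -0.097 or -0.092 when replicate 2 or 3 of CPIP was dropped, or -0.093 when replicate 2 of CPIP+EA was. Thra, the thyroid hormone receptor alpha gene, overlaps Nr1d1 in the RefSeq gene table, and no strand-specific counting is stated, so reads of the shared part cannot be assigned to either. Thra stood at 73.86, 76.81 and 82.31 FPKM in Con, at 65.07, 70.94 and 64.01 in CPIP, while the CPIP+EA libraries gave 68.49, 74.24 and 59.45, a log2 difference of CPIP from Con of -0.22 (adjusted p = 0.509).

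Nr1d2, the second REV-ERB, ranged from 18.99 to 20.37 FPKM in Con and from 18.86 to 20.12 in CPIP, and stood at 16.58, 14.85 and 20.31 in CPIP+EA. The groups overlapped, with replicate 3 of CPIP+EA at the level of the other groups. The log2 difference of CPIP+EA from Con was -0.20 (SE 0.10, limma adjusted p = 0.467), -0.33 without that replicate and -0.11 without CPIP+EA replicate 2. Replicate 3 is also the CPIP+EA library with the highest fibroblast, erythroid, myeloid and macrophage marker sums, whose part in these values was not tested. Rora, an activator at ROREs, ranged only from 1.15 to 1.48 FPKM over all 9 libraries, and its differences from Con were 0.04 (adjusted p = 0.974) in CPIP and 0.10 (adjusted p = 0.746) in CPIP+EA. The first of these was 0.012 without Con replicate 2 and 0.075 without Con replicate 3, and the second 0.051 without CPIP+EA replicate 3.

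Of the E-box repressors, Bhlhe40 stood at 8.31, 8.69 and 7.94 FPKM in Con, at 5.66, 6.34 and 5.62 in CPIP, while the CPIP+EA libraries gave 8.30, 5.28 and 5.42. CPIP lay below Con in every library, and in CPIP+EA replicate 1 was at the Con level while the others were at the CPIP level. CPIP differed from Con by -0.47 on the log2 scale (SE 0.15, limma adjusted p = 0.349). CPIP+EA differed from Con by -0.39 (adjusted p = 0.328), and by -0.59 without its replicate 1. Bhlhe41 stood at 16.36, 12.19 and 14.13 FPKM in Con, 15.61, 16.17 and 16.65 in CPIP, while the CPIP+EA libraries gave 15.02, 16.07 and 11.76, with all groups overlapping. Its CPIP+EA against Con difference of 0.0035 turned sign on the TPM scale.

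**Figure D2:**
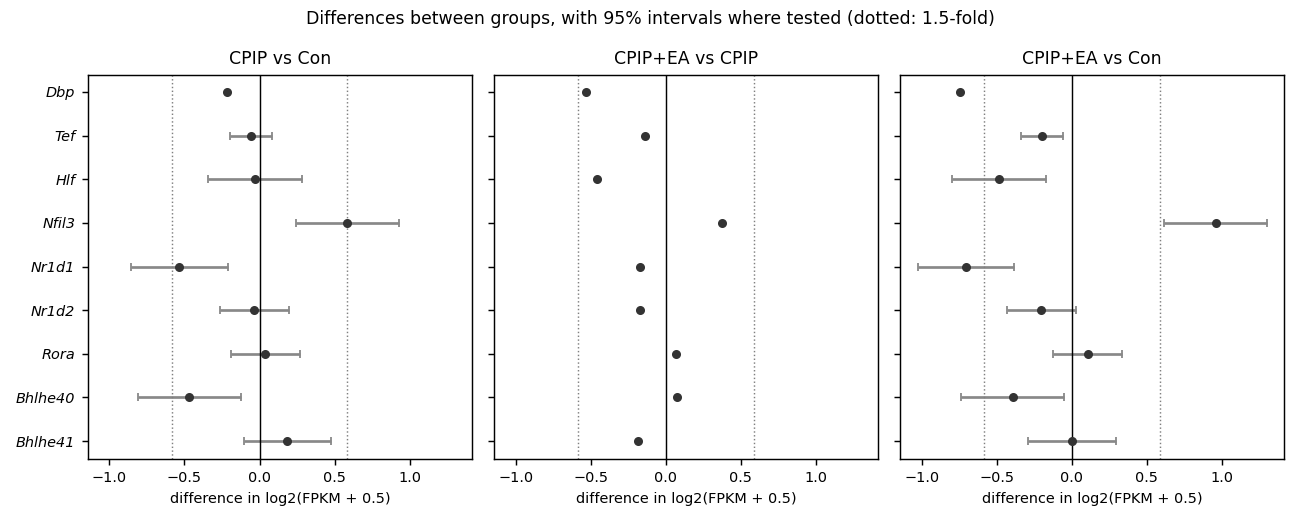
Differences in log2(FPKM + 0.5) between groups (horizontal axis) for the 9 members above the filter (vertical axis), with points for the estimate and bars for the 95% interval of the limma fit in the 2 comparisons with Con, none being drawn for Dbp or between CPIP+EA and CPIP; dotted lines mark 1.5-fold. Nfil3 lies to the right in all 3 panels, Dbp to the left, and Nr1d1 is farther from 0 against Con than between CPIP+EA and CPIP.

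Set against the whole table, 0 of the 8 members tested were DEGs (limma adjusted p under 0.01 and at least 1.5-fold) in CPIP against Con, where 0.355% of 17187 genes were, and 0 of 8 in CPIP+EA against Con, where 0.483% were. At an unadjusted p under 0.05, a count added after values were seen, 3 of 8 passed in CPIP against Con (Nfil3 higher, Nr1d1 and Bhlhe40 lower) beside 8.66% of all genes. In CPIP+EA against Con 5 of 8 passed (Nfil3 higher, Tef, Hlf, Nr1d1 and Bhlhe40 lower) beside 12.2% of all genes. That comparison uses the CPIP+EA libraries in which Dbp was chosen for its low level, so its count is not independent of the choice. The comparison of CPIP+EA with CPIP gave 0 DEGs among all 17187 genes (0%), with 738 genes, 4.29%, at an unadjusted limma p under 0.05. The paper did report DEGs for this comparison at the same nominal limits, from its own Q-values, which were not used here.

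By overlap of libraries, among the 8 members tested, which leave out Dbp, 1 was higher (Nfil3) and 2 lower (Nr1d1, Bhlhe40) in all CPIP than in all Con libraries, where 7.98% of all genes were higher and 7.90% lower in this way. In CPIP+EA against Con, 1 was higher (Nfil3) and 3 lower (Tef, Hlf, Nr1d1), beside 8.87% and 7.32% of all genes. In CPIP+EA against CPIP, which chose Dbp, 1 was higher (Nfil3) and 2 lower (Tef, Hlf), beside 4.84% and 3.40%, and nothing is read from that count. The median log2 difference of the 8 was -0.031 in CPIP against Con, -0.16 in CPIP+EA against CPIP and -0.20 in CPIP+EA against Con, where the medians of all genes were -0.0064, 0.012 and 0.0014. These comparisons share libraries, so they are not independent of each other or of the choice of Dbp.

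The core loop list holds Arntl, Arntl2, Clock, Npas2, Per1, Per2, Per3, Cry1 and Cry2, and 0 of these 9 were DEGs in any comparison, beside 0.355% of all genes in CPIP against Con, 0.483% in CPIP+EA against Con and 0% in CPIP+EA against CPIP. In CPIP against Con 0 of 9 had an unadjusted limma p under 0.05, beside 8.66% of all genes, and in CPIP+EA against Con 1 was higher (Arntl) and 2 lower (Per2, Per3) at that level, beside 12.2%. By overlap of libraries, 0 of 9 stood apart in CPIP against Con, where 7.98% of all genes were higher and 7.90% lower in this way. The CPIP+EA libraries all lay above the Con libraries for 1 (Arntl, beside 8.87% of all genes). They lay below the Con libraries for 2 (Per2 and Per3, beside 7.32%). Against CPIP they lay above for 2 (Arntl, Arntl2, beside 4.84%) and below for 2 (Per2 and Per3, beside 3.40%). Nothing is read from the count against CPIP, the comparison that chose Dbp, and the count against Con uses the same CPIP+EA libraries. Arntl, the activator that REV-ERBs repress, stood between 3.71 and 3.89 FPKM in all Con and CPIP libraries and at 4.25, 4.63 and 5.98 in CPIP+EA. Its log2 difference of CPIP+EA from Con was 0.35 (SE 0.12, adjusted p = 0.271), the highest of these libraries being replicate 3, the one with the most blood-cell and macrophage marker signal. Without that replicate, an alternative chosen after seeing the data, the difference was 0.21 (adjusted p = 0.346).

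The period genes Per2 and Per3, negative limbs of the loop, were lower in every CPIP+EA library than in any other. Per2 stood between 4.37 and 4.86 FPKM in Con and CPIP and at 3.6, 3.04 and 3.63 in CPIP+EA, a log2 difference from Con of -0.39 (SE 0.093, limma adjusted p = 0.0972). Per3 stood between 12.99 and 15.59 FPKM in Con and CPIP and at 9.53, 10.53 and 11.31 in CPIP+EA, a difference from Con of -0.50 (SE 0.081, adjusted p = 0.0194). Per1 spread widely within groups, from 7.81 to 23.85 FPKM in Con alone.

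Of 12 clock regulators and cofactors, 0 were DEGs in any comparison, beside the same shares of all genes. Ciart (CHRONO), a repressor of ARNTL and CLOCK and the gene with 3 E-boxes above, stood at 2.62, 2.98 and 3.95 FPKM in Con, at 2.94, 2.71 and 2.87 in CPIP, while the CPIP+EA libraries gave 1.5, 1.81 and 1.22. The CPIP+EA libraries lay below all others, with a log2 difference from Con of -0.87 (SE 0.16, limma adjusted p = 0.0326) and from CPIP of -0.74. Of 10 output genes, 1 was a DEG in each comparison with Con, where 0.355% and 0.483% of all genes were, Cdkn1a, the cell cycle inhibitor p21, which rose in CPIP against Con by 1.31 on the log2 scale (adjusted p = 0.00257) and in CPIP+EA against Con by 1.31 (adjusted p = 0.00201). These calls were lost, 0 of 31 listed clock genes remaining, with the replicate number as a block and without any 1 Con library, in CPIP+EA against Con also with only the 2 groups compared, and further without CPIP replicate 2 or 3 for CPIP against Con and without CPIP+EA replicate 2 for CPIP+EA against Con. With 1 library left out, the Cdkn1a log2 difference from Con ran from 1.21 to 1.41 in CPIP (highest limma adjusted p = 0.0168). In CPIP+EA it ran from 1.17 to 1.40 (highest adjusted p = 0.0141). Wee1, a mitotic kinase gene with E-boxes known in mouse, stood between 7.50 and 8.70 FPKM in Con, between 10.48 and 11.31 in CPIP and between 8.20 and 8.40 in CPIP+EA, a difference of CPIP from Con of 0.37 (adjusted p = 0.0758). Among the other output genes, Pdxk, Alas1 and Por overlapped between all groups. Their log2 differences of CPIP+EA from Con were -0.10, -0.024 and -0.094 (limma adjusted p = 0.849, 0.956 and 0.700). From CPIP they were 0.036, -0.12 and -0.059. Over the 10 output genes, 4 were higher and 6 lower in CPIP+EA than in Con, with a median log2 difference of -0.046.

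**Figure D3:**
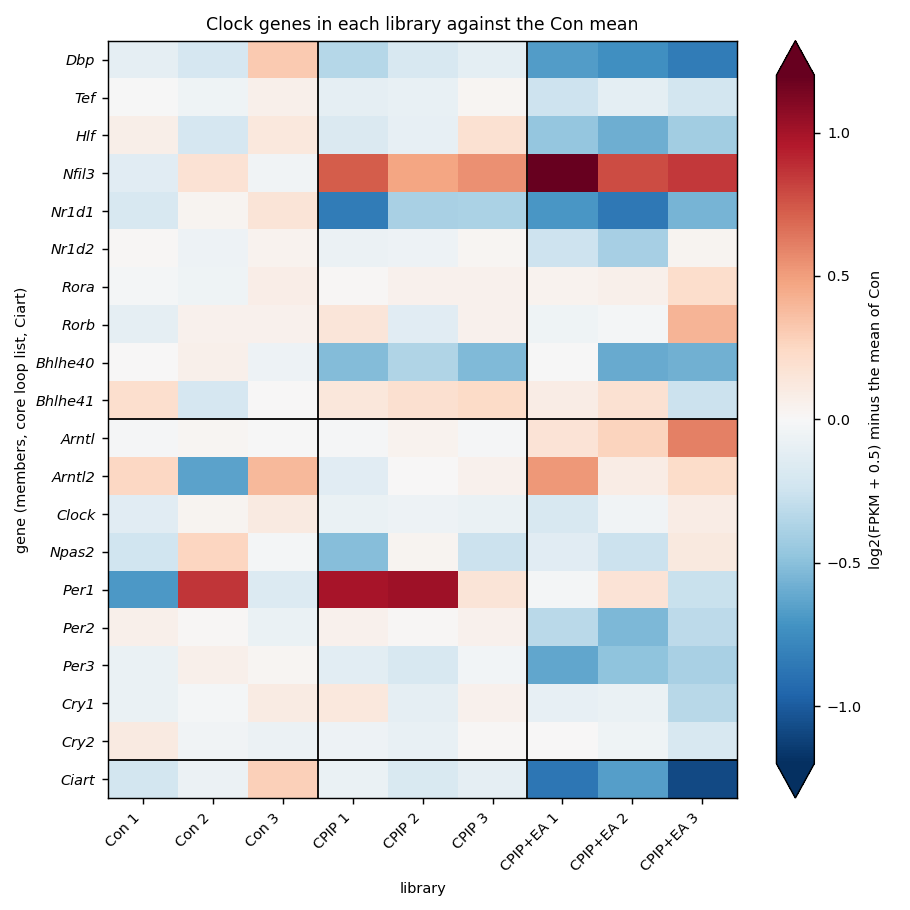
Level of each member, each core loop gene and Ciart (rows) in each of the 9 libraries (columns), as log2(FPKM + 0.5) minus the mean of the Con libraries, red for higher and blue for lower. Dbp, Hlf, Per2, Per3 and Ciart are blue in the 3 CPIP+EA libraries, Nr1d1 in all CPIP and CPIP+EA libraries, and Nfil3 is red in both.

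Some members can be set against each other within a library, and the ratios below were chosen after the values were seen and carry no test. Dbp stood at 11.2, 10.2 and 14.9 times the Arntl level in Con, at 9.5, 10.1 and 11.2 times in CPIP, while the CPIP+EA libraries gave 6.6, 5.79 and 4.17 times. Nr1d1 stood at 6.59, 7.51 and 8.36 times Arntl in Con, at 4.16, 5.47 and 5.77 times in CPIP, while the CPIP+EA libraries gave 4.00, 3.28 and 3.16 times. The 3 groups did not overlap for the Nr1d1 ratio, and for the Dbp ratio Con and CPIP did. Nr1d1 itself overlapped between CPIP and CPIP+EA, while Arntl was higher in CPIP+EA (4.25 to 5.98 FPKM) than in CPIP (3.71 to 3.89). Nfil3 amounted to 1.75% ± 0.43 (SD, n = 3) of the summed Dbp, Tef and Hlf level in Con, 3.23% ± 0.55 in CPIP and, after EA, 5.65% ± 1.17. Dbp makes up much of that sum and was selected for its low CPIP+EA level, so nothing is read from the separation of the groups in this percentage or in the ratio of Dbp to Arntl. The REV-ERB sum of Nr1d1 and Nr1d2 stood at 37.1, 38.7 and 37.4 times the ROR sum of Rora and Rorb in Con, at 25.6, 31.4 and 30.8 times in CPIP, while the CPIP+EA libraries gave 25.8, 22.6 and 22.8 times. Con lay above both model groups in every library, and these overlapped each other.

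**Figure D4:**
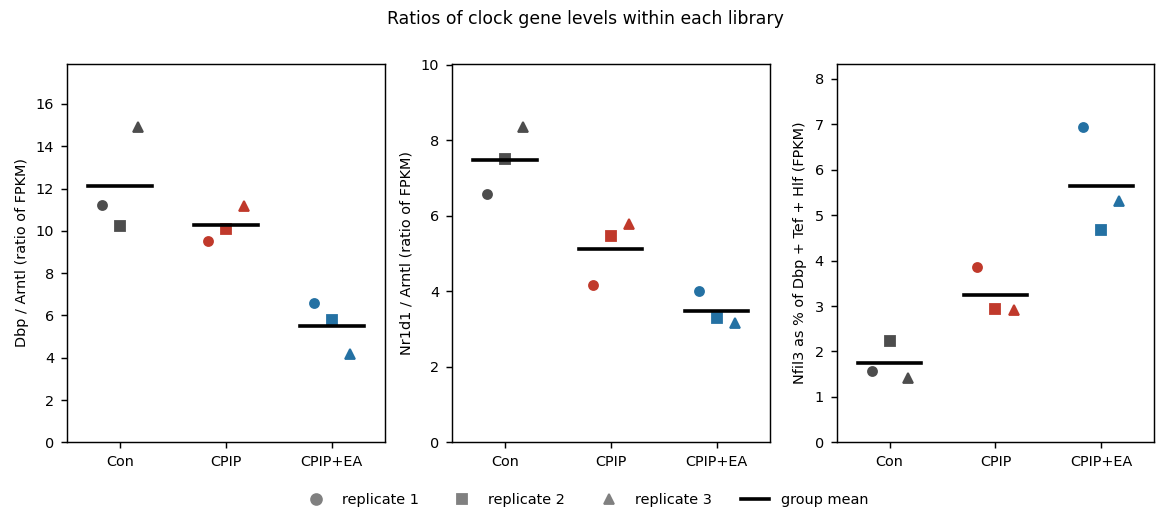
Ratio of Dbp to Arntl, ratio of Nr1d1 to Arntl, and Nfil3 as a percent of summed Dbp, Tef and Hlf, from FPKM within each library (vertical axes from 0), by group, with a bar for the group mean. The ratio of Nr1d1 to Arntl runs from 7.49 in Con through 5.13 in CPIP to 3.48 in CPIP+EA on average. Nr1d1 alone overlapped between CPIP and CPIP+EA.

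Members differed in how far rats of 1 group lay apart. The within-group SD on the log2 scale was 0.065 for Tef and 0.068 for Rora, at the 9.44 and 10.6 percentiles of 13914 genes with a mean of at least 1 FPKM. It was 0.18 for Dbp, 0.19 for Nfil3, 0.20 for Nr1d1 and 0.21 for Bhlhe40, between the 71.8 and 78.4 percentiles. The median gene had an SD of 0.13.

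Deviations from the group mean, which the choice of Dbp did not use, were related to those of Dbp over the 9 libraries for the other 9 members and the 9 core loop genes, 18 relations in all. None passed the exact permutation test over all reorderings of the libraries within groups after Benjamini-Hochberg adjustment, the lowest adjusted p being 0.738. The smallest p that these reorderings can give is 0.00463, which for a single relation adjusts to 0.0833, so that no relation could have passed 0.05 alone. Arntl2, a paralog of Arntl, had the largest r of the 18, r = 0.71 (exact permutation p = 0.287) and rho = 0.67 (p = 0.162). Hlf had Pearson's r = 0.62 (exact permutation p = 0.144) and Spearman's rho = 0.73 (p = 0.111). Tef had r = 0.60 (exact permutation p = 0.106) and rho = 0.45 (p = 0.264). Nr1d1 had r = 0.49 (exact permutation p = 0.264) and rho = 0.67 (p = 0.171). Without Con replicates 2 and 3, the libraries whose Dbp deviations from the group mean (-0.20 and 0.31 on the log2 scale) lay farthest from the median deviation, r was 0.22 for Arntl2, 0.36 for Hlf, 0.41 for Tef and 0.58 for Nr1d1. Nfil3 had r = -0.15 (exact permutation p = 0.722) and rho = 0.0 (p = 1.0), and r = 0.18 without them.

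**Figure D5:**
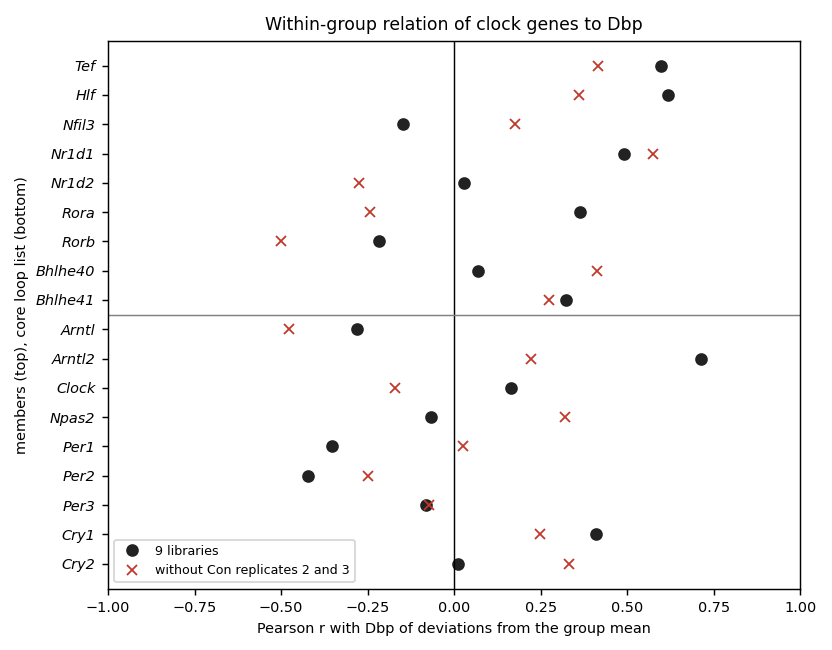
Pearson's r between the within-group deviations of Dbp and of each other member (above the line) and core loop gene (below it), over 9 libraries (dots) and without Con replicates 2 and 3 (crosses). For Rora r moves from 0.36 to -0.24 when those libraries are left out.

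Among the 13914 genes with a mean of at least 1 FPKM, the 5 most like Dbp in these deviations were Card19 (r = 0.986), Zfp523 (r = 0.968), Slc7a5 (r = 0.955), Pdcd2l (r = 0.953) and Lipe (r = 0.950). In all, 28 genes reached an r of 0.9 or more and 17 an r of -0.9 or less. These are descriptions over 9 libraries, ranked among many genes, and carry no test. None of the members was among the 28, Hlf ranking 860 and Tef 959.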

How the data were processed

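RNA-Seq libraries of L4-6 DRGs from Con, CPIP and CPIP+EA rats, 3 each, were grouped by their sample titles. The authors filtered reads with SOAPnuke and deposited FPKM values per gene with 2 decimals, and the aligner and genome build are not given in the sources used here. Deposited log2 ratios, p-values and Q-values of the authors' own comparisons were not used. The table holds no counts, so the depth behind a value is unknown in it, and replicate number limits precision.

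Values on the log2(FPKM + 0.5) scale entered limma 3.58.1, run under R 4.3.3 (mean-variance trend, all 9 libraries in 1 fit, two-sided, Benjamini-Hochberg over the 17187 genes with a mean of at least 0.1 FPKM). Fold changes on this scale understate those of low genes. A DEG had an adjusted p under 0.01 and at least 1.5-fold change. The procedure was tested on simulated data. Named genes were the members, the listed clock and glucocorticoid-responsive genes, genes overlapping a member, and the 5 most like Dbp. The members and lists were chosen with earlier results of these data known, and the ratios, the counts of members at an unadjusted p and the promoters shown were chosen after values were seen. Sequences came from RefSeq (GRCr8), which matched 18746 of 20413 gene identifiers and all 10 members. Alternatives changed the pseudocount (0.1 or 1), filter, scaling, trend, threshold, replicate block, and libraries entered. A listed gene is not reported here and was left out of the list counts and relations. Figures were drawn with matplotlib.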

Additional observations from a re-analysis of the deposited data

How the results depend on the processing

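In the 2 comparisons with Con, 0 of the 8 members tested were DEGs under the alternative fits run at the main threshold, and with an adjusted p under 0.05, with or without the fold limit, 1 member (Nfil3) passed in CPIP+EA against Con. Over all genes, the 61 DEGs of CPIP against Con became 40 when no filter was set, 26 with a replicate block, 122 at an adjusted p under 0.05 and 102 with the fold limit kept, and ran from 30 to 62 with 1 library left out. The 83 of CPIP+EA against Con became 55 with no filter, 42 with the replicate block, 46 with only the 2 groups compared, 226 at an adjusted p under 0.05 and 163 with the fold limit kept, and ran from 35 to 82 with 1 library left out. The 0 of CPIP+EA against CPIP became 1 with only the 2 groups compared and ran from 0 to 2 with 1 library left out. The 1 listed gene called in each comparison with Con became 0 with the replicate block, 0 in CPIP+EA against Con with only the 2 groups compared, and ran from 0 to 1 with 1 library left out. The causes were not tested. Same-numbered libraries correlated between -0.236 and 0.297 in their deviations and differently numbered ones between -0.223 and 0.28, and the replicate numbers were not taken as pairs. The differences of CPIP from Con ran from 0.083 to 0.29 for Bhlhe41 and from -0.064 to -0.014 for Nr1d2 with 1 library left out. The Hlf difference of CPIP from Con ran from -0.14 to 0.042 with 1 library left out, and the Bhlhe41 difference of CPIP+EA from Con was -0.026 on the TPM scale and ran from -0.099 to 0.13 with 1 library left out. With each library left out in turn, an alternative added after seeing the data, Arntl, Per2, Per3 and Ciart kept their direction in CPIP+EA against Con, and Wee1 and Thra in CPIP against Con. The r with Dbp turned to -0.014 for Cry2 with raw FPKM and to -0.069 for Nr1d2 with median centring. Of the tested members' values under the alternatives, 312 kept their direction and side of the threshold and 8 turned direction. With 3 libraries per group and no read counts, differences of low genes such as Rorb could not be resolved.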

Other observations

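Of 9 glucocorticoid-responsive genes listed beside the clock genes, 0 were DEGs in any comparison by limma. Over all genes the share was 0.355% in CPIP against Con, 0.483% in CPIP+EA against Con and 0% in CPIP+EA against CPIP. At an unadjusted p under 0.05, 2 were higher in CPIP than in Con (Dusp1, Mt1) beside 8.66% of all genes, 2 were lower in CPIP+EA than in CPIP (Dusp1, Mt1) beside 4.29%, and 0 had such a p in CPIP+EA against Con beside 12.2%. Sgk1, a kinase gene induced by glucocorticoids, stood at 10.41, 19.37 and 11.67 FPKM in Con, at 27.85, 23.89 and 13.29 in CPIP, while the CPIP+EA libraries gave 14.64, 12.41 and 12.63. Other genes of the list went differently, the log2 differences of CPIP from Con and of CPIP+EA from CPIP being -0.04 and 0.13 for Fkbp5, -0.91 and 0.53 for Mt2A, and 0.05 and 0.31 for Zbtb16. Klf15, a further glucocorticoid-induced gene that stands in the list of output genes, stood at 5.56, 10.69 and 6.80 FPKM in Con and at 11.32, 9.52 and 6.61 in CPIP, while the CPIP+EA libraries gave 6.01, 6.10 and 7.98. Per1, from the core loop list, stood at 7.81, 23.85 and 11.50 FPKM in Con, at 26.11, 26.70 and 14.47 in CPIP, while the CPIP+EA libraries gave 12.69, 14.56 and 10.64. Con replicate 2 was the highest of its group for Sgk1, Klf15 and Per1, and CPIP replicate 3 the lowest of its group, while in CPIP+EA the highest library differed between the 3 genes. Dusp1, Mt1, Pdk4 and Klf9 had the same highest Con and lowest CPIP library. For Fkbp5, Tsc22d3, Zbtb16, Mt2A and Nr3c1, CPIP replicate 2 was the lowest of its group. Wee1 was among the 5 genes with the lowest r with Dbp within groups (r = -0.965).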
